A study of Pardosa pseudoannulata with 16 samples.

Results

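UH against Ck compares 2 of the 4 groups of whole spiders in a study of urea and the wolf spider Pardosa pseudoannulata. It takes 8 of the 16 libraries, UH replicates 1 to 4 and Ck replicates 1 to 4, as the labels name them. Of the 136360 sequence clusters in the deposited table, 28235 (20.7%) had at least 1 FPKM in at least 4 of these 8 libraries and were compared. FPKM is the number of sequenced fragments per kilobase of a cluster, scaled to the fragments of its library. A cluster is a set of assembled sequences that stands in the table for a gene or a piece of one; the table gives it a name and a length but no gene.

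Adult spiders were collected from rice fields and kept on soil with urea, a nitrogen fertiliser, for 30 days, per the design text of the series. That text names 0, 200 and 400 mg/kg, which are 3 concentrations for 4 groups (Ck, UL, UM and UH). The labels give every sample the same treatment entry, Ck included, so no concentration was assigned to UH. Ck, a usual abbreviation for a control, was taken as the reference, though the labels do not spell it out. No strain, sex, age or number of pooled animals is given for either group, and p-values measure the spread between these libraries, which may be technical.

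Wolf spiders hunt on the ground without a web, and this species is a common predator of planthoppers in rice. A library from a whole spider mixes RNA of venom and silk glands, midgut, muscle, nerve tissue, cuticle and reproductive organs. Glands that make secreted proteins in bulk can hold a few very abundant transcripts, and moulting or egg production changes the share of some tissues. In whole animals, fewer cells of a type and less RNA per cell cannot be told apart. No marker gene of any tissue could be matched to a cluster, so the tissue on the labels was not checked.

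Depth, estimated from the steps between low FPKM values, was 18.42 to 19.45 M fragments in UH and 17.65 to 20.83 M in Ck. A single fragment was then worth 0.206 to 0.2485 FPKM on a cluster of 500 bases and 0.0277 to 0.0327 FPKM on 1 of 2000 bases. Across the compared clusters, the 6 pairs of UH libraries had correlations of 0.872 to 0.934 and the 6 pairs of Ck libraries 0.76 to 0.913. The 16 pairs of a UH and a Ck library had 0.703 to 0.879, so the ranges overlap. The lowest correlation within Ck was that of replicates 1 and 2. Clusters share their library, so these are descriptions and not tests.

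UH differed from Ck in both directions, with more falls than rises as deposited. Of the 28235 clusters, 1641 (5.81%) passed an adjusted p of 0.05 in limma; 338 (1.2%) rose in UH and 1303 (4.61%) fell. The called rises were larger as deposited: their median log2 fold change was 1.52, against -0.88 among the falls. After median ratio scaling, described below, the medians lay closer in size, at 1.38 and -1.10. As deposited, the median SD within Ck and UH was 0.38 and 0.41 among the rises and 0.22 and 0.16 among the falls. The part of this spread in the sizes of the calls was not tested. On the FPKM scale as deposited, clusters listed at 0 throughout a group were left out. The mean in UH was then a median of 4.76 times the mean in Ck over 330 rises. Over 1276 falls the mean in Ck was a median of 2.23 times that in UH. A ratio of at least 10 was found for 82 rises and 122 falls.

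The 4 UH libraries were entirely above the 4 Ck libraries in 335 of the 338 rises and entirely below them in 1301 of the 1303 falls. Among all compared clusters, 19.0% had no overlap between the groups (4.14% with UH above and 14.9% with UH below). Clusters that passed the filter through 1 group alone were a minority of the calls. At least 1 FPKM in all UH and in no Ck library was found for 131 of the 28235 compared clusters. They held 81 of the 338 rises. The reverse held for 389 clusters, which held 215 of the 1303 falls. Of the calls, 8 rises were listed at 0 in every Ck library and 27 falls in every UH library.

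The number of calls changed when single libraries were left out. Leaving out 1 library at a time gave 341 to 2534 calls. Such a fit sets 3 libraries against 4 and has less power, and the part of this in the lower counts was not tested. The lowest counts came without UH replicates 1 (341) and 2 (348) and Ck replicates 4 (437) and 3 (633); the count was 702 without UH replicate 3, 801 without UH replicate 4 and 1029 without Ck replicate 2. Without Ck replicate 1 the count was higher, 2534. A fit that also held the UL and UM libraries called 3741 clusters (13.2%; 4.1% rose and 9.15% fell), and 1539 of the 1641 calls (93.8%) were among them.

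The whole distribution of changes lay slightly below 0. The median log2 fold change of all compared clusters was -0.15, the quartiles were -0.39 and 0.14, and 65.0% of clusters lay below 0. Median ratio scaling divides each library by the median of its ratios to the geometric mean (the mean on the log scale) of the 8. This median was taken over the 43312 clusters listed above 0 in all 8. The factors were 1.011, 1.181, 1.05 and 1.162 in Ck replicates 1 to 4 and 0.9539, 0.943, 0.9317 and 0.9912 in UH replicates 1 to 4. Every UH factor lay below every Ck factor (exact permutation p = 0.0286, the smallest possible with 4 against 4; 0.0786 after Benjamini-Hochberg adjustment over 22 library measures).

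After scaling, the median was -0.00 and 1082 clusters (3.83%) passed, of which 467 (1.65%) rose and 615 (2.18%) fell. The share of falls among calls went from 79.4 to 56.8%, and quantile normalization gave 432 rises and 670 falls. All 615 falls called after scaling had also been called as deposited, and 688 falls were called only as deposited. Those 688 were smaller, with a median log2 fold change of -0.67 as deposited against -1.25 for the 615 called both ways. Their abundance was alike, with a median mean of 4.1 FPKM against 4.25. Of the 338 rises, 322 (95.3%) passed both ways, and a further 145 passed only after scaling. No cluster was called in opposite directions (0). The excess of falls did not hold throughout after scaling: without Ck replicate 1 there were 938 rises and 683 falls, without UH replicate 3 there were 440 and 383, and with a replicate block 243 and 246. After scaling, 7.98% of all compared clusters had UH entirely above Ck and 8.54% entirely below.

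**Figure D1:**
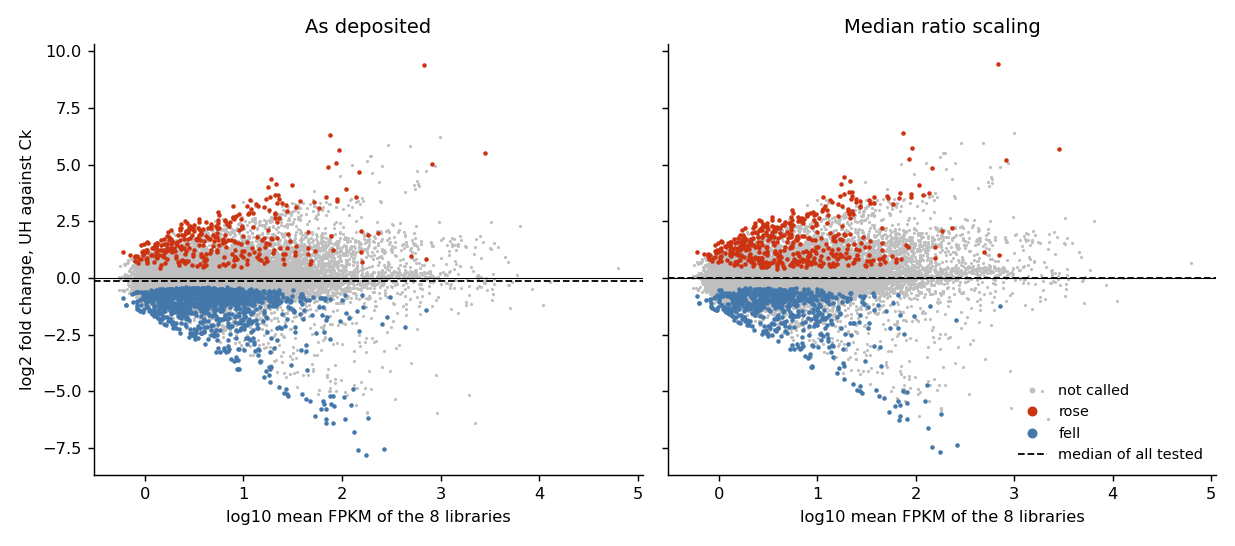
Log2 fold change of UH against Ck (vertical) by the log10 of the mean FPKM of the 8 libraries (horizontal), for 28235 clusters as deposited (left) and after median ratio scaling (right). Red points rose and blue points fell at an adjusted p under 0.05, and the dashed line is the median of all clusters, -0.15 on the left and -0.00 on the right; the band of small falls just under 0 thins out on the right.

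Fewer different clusters were listed in UH. Clusters above 0 numbered 79811, 97015, 81431 and 92067 in Ck replicates 1 to 4 and 78750, 76712, 78807 and 77933 in UH replicates 1 to 4. All UH counts lay below all Ck counts, but Ck replicates 1 and 3 were close to UH and replicates 2 and 4 were far above (exact permutation p = 0.0286, adjusted 0.0786). Clusters at 1 FPKM or more numbered 30888 to 39470 in Ck and 28643 to 30500 in UH (the same p values). The part of this difference in the falls was not tested.

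The largest rises among clusters with no overlap between the groups came from 6 clusters of 1498 to 8023 bases. Cluster-9253.84883 (1498 bases) stood at 0.04, 0.04, 0 and 0.26 FPKM over Ck replicates 1 to 4 and at 1654.27, 3198.14, 99.96 and 501.04 over UH replicates 1 to 4 (log2 fold change 9.38 ± 0.95 SE, adjusted p = 0.00406). The Ck values amount to at most 6.1 estimated fragments. Cluster-9253.14435 (1837 bases) had at most 0.13 FPKM in any Ck library and stood at 187.01, 351.84, 15.07 and 47.06 FPKM over UH replicates 1 to 4 (log2 fold change 6.32 ± 0.87 SE, adjusted p = 0.0114). In both, UH replicate 2 was highest and replicate 3 lowest.

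Cluster-9253.46184 (1735 bases) stood at 10.58, 0.16, 0.12 and 1.39 FPKM over Ck replicates 1 to 4 and at 200.3, 429.76, 56.19 and 43.52 over UH replicates 1 to 4. Its log2 fold change was 5.64 ± 0.96 (SE; adjusted p = 0.0216), and the call was lost without Ck replicate 3 or 4 or UH replicate 1 or 2 (adjusted p up to 0.073). UH replicate 2 was again highest, replicate 4 was lowest, and Ck replicate 1 stood above the other Ck libraries. UH replicate 2 thus led all 3 of these clusters, while the UM libraries, outside this comparison, ran up to 1159.7, 115.53 and 75.26 FPKM in the same clusters, each time in UM replicate 4. In UL none of the 3 passed 0.28 FPKM in any library.

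The other 3 of the largest rises followed another order of the libraries. Cluster-9253.47406 (5611 bases) stood at 458.47, 63.96, 11.98 and 275.88 FPKM over Ck replicates 1 to 4 and at 5908.06, 6795.3, 7914.64 and 1459.06 over UH replicates 1 to 4 (log2 fold change 5.51 ± 1.12 SE, adjusted p = 0.0348). Cluster-9253.48358 (8023 bases) stood at 169.87, 23.85, 4.97 and 103.94 FPKM over Ck replicates 1 to 4 and at 1788.24, 1917.66, 2150.84 and 406.01 over UH replicates 1 to 4 (log2 fold change 5.03 ± 1.07 SE, adjusted p = 0.0393). These 2 long clusters ranked both the UH and the Ck libraries identically; whether they belong to 1 transcript was not tested. The call on the first was lost without Ck replicate 2 or 4 or UH replicate 1, 2 or 3 (adjusted p up to 0.0993), and that on the second without any 1 library other than Ck replicate 1 (up to 0.106).

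Cluster-9253.36950 (2225 bases) stood at 7.05, 1.07, 1.01 and 8.58 FPKM over Ck replicates 1 to 4 and at 162.08, 213.73, 248.87 and 48.66 over UH replicates 1 to 4 (log2 fold change 5.09 ± 0.70 SE, adjusted p = 0.0115). It shared the order of the UH libraries, replicate 3 first and replicate 4 last, with the 2 long clusters. All 3 were near 0 in UL, where the highest values were 2.31, 0.51 and 2.39 FPKM for Cluster-9253.47406, Cluster-9253.48358 and Cluster-9253.36950. In UM they had means of 532.1, 148.1 and 24.01 FPKM. The mean in UH was 27.2, 20.7 and 38.0 times that in Ck for the 3 clusters in this order.

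**Figure D2:**
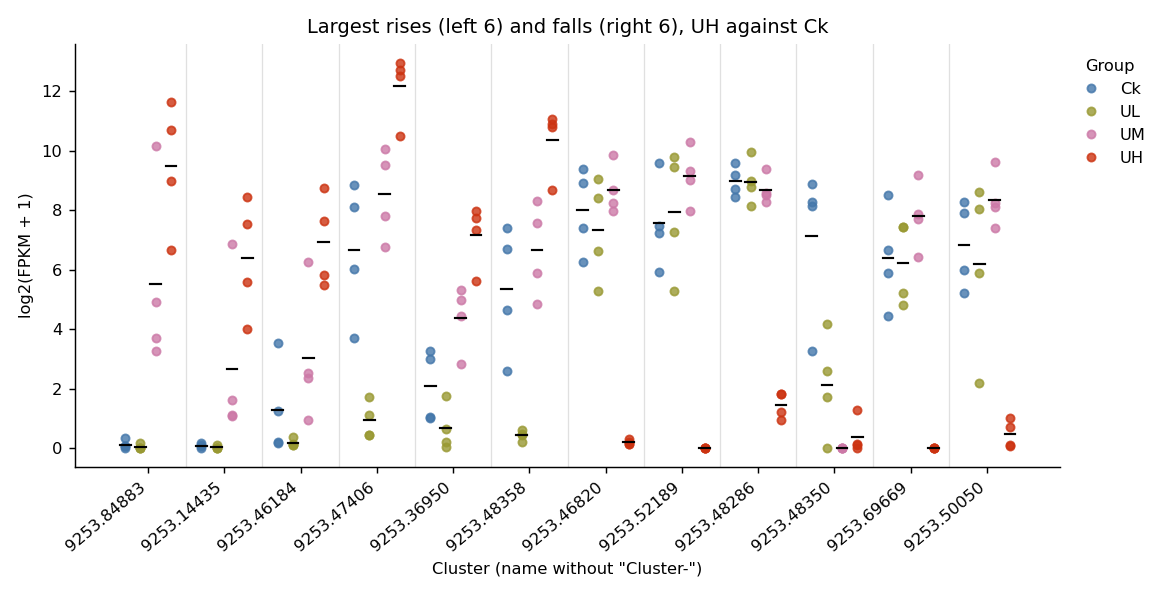
Log2(FPKM + 1) of the 6 largest rises (left) and the 6 largest falls (right) between UH and Ck, with 1 point per library in each of the 4 groups and a bar at the group mean of 4 libraries. UL and UM took no part in the comparison; they lie at the level of Ck in most of the falls, while in the rises UL lies near 0 and the UM means lie between those of Ck and UH.

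The largest falls left UH near 0. Cluster-9253.48286 (1341 bases) had the smallest p of the 27 named clusters, at 350.46, 578.67, 417.1 and 764.8 FPKM over Ck replicates 1 to 4 and 0.91, 2.55, 1.34 and 2.56 over UH replicates 1 to 4 (log2 fold change -7.53 ± 0.31 SE, adjusted p = 5.74e-05). The mean in Ck was 287 times that in UH, whose highest library had 53 estimated fragments. The UL libraries had 280.23 to 989.31 FPKM and the UM libraries 308.71 to 672.39 FPKM, so both overlapped Ck, and UL reached below and above it. The call held with any 1 library left out (highest adjusted p 0.000907).

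Cluster-9253.46820 (1367 bases) stood at 169.74, 675.42, 76.42 and 478.74 FPKM over Ck replicates 1 to 4 and at no more than 0.24 in any UH library (log2 fold change -7.81 ± 0.62 SE, adjusted p = 0.00227). Cluster-9253.50050 (1689 bases) stood at 35.88, 236.78, 62.55 and 308.91 FPKM over Ck replicates 1 to 4 and at 0.04, 1.0, 0.07 and 0.62 over UH replicates 1 to 4 (log2 fold change -6.38 ± 0.675 SE, adjusted p = 0.00466). In both, Ck replicates 2 and 4 were the highest Ck libraries and UH replicates 2 and 4 the highest UH libraries. The UH values amount to 1.92 to 4.99 estimated fragments in Cluster-9253.46820 and to 1.05 to 27.0 in Cluster-9253.50050. The order of the UH libraries in Cluster-9253.46820 therefore rests on very few fragments. The lowest Ck value was far above the highest UH value in both.

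Short clusters were among the largest falls too. Cluster-9253.52189 (339 bases) stood at 59.44, 177, 151.02 and 777.06 FPKM over Ck replicates 1 to 4, and Cluster-9253.69669 (361 bases) stood at 20.91, 100.51, 57.91 and 366.46 FPKM. All UH libraries list both at 0 (adjusted p = 0.00274 and 0.00665), and in both Ck replicate 4 was highest, then 2, 3 and 1. On such short clusters the lowest Ck values amount to 83.7 and 37.7 estimated fragments.

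Cluster-9253.48350 (1842 bases) stood at 311.46, 469.81, 278.89 and 8.63 FPKM over Ck replicates 1 to 4 and at 0, 0.1, 1.4 and 0.07 over UH replicates 1 to 4 (log2 fold change -6.77 ± 1.15 SE, adjusted p = 0.0219). Ck replicate 4 stood far below the other Ck libraries here, and the call was lost without Ck replicate 3 or UH replicates 1, 2 or 4 (highest adjusted p 0.0732). Its values in UL (0 to 16.88 FPKM) and UM (listed at 0 in all 4) were low as well.

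Of the 4 most abundant rises, 3 were among the largest changes named above, Cluster-9253.47406, Cluster-9253.48358 and Cluster-9253.84883. The remaining change was smaller: that of Cluster-9253.48277 (4050 bases), at 486.71, 485.69, 518.76 and 517.72 FPKM over Ck replicates 1 to 4 and 871.62, 1033.44, 1031.6 and 702.2 over UH replicates 1 to 4. Its mean in UH was 1.81 times that in Ck (log2 fold change 0.84 ± 0.20 SE, adjusted p = 0.0488). The Ck libraries spread little (SD 18.5 FPKM, n = 4), yet this p lies at the threshold and rose above it with any 1 library left out (0.0507 to 0.128).

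The most abundant falls were 4 clusters. Cluster-9253.48283 (2313 bases) fell from 1018.24, 957.83, 939.93 and 1174.84 FPKM over Ck replicates 1 to 4 to 355.21, 387.57, 564.02 and 277.18 over UH replicates 1 to 4 (log2 fold change -1.41 ± 0.25 SE, adjusted p = 0.0246; 0.0482 after scaling). Its mean in Ck was 2.58 times that in UH, with UM between the groups (634.79 to 760.8 FPKM), and the call was lost without Ck replicate 3 or 4 or UH replicate 1 or 2 (adjusted p up to 0.0809). Cluster-9253.47689 (1377 bases) fell from 359.24, 395.77, 382.9 and 417.16 FPKM to 201.65, 231.93, 274.23 and 178.62 FPKM (log2 fold change -0.82 ± 0.19 SE, adjusted p = 0.0462; 0.109 after scaling).

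The other 2 were short clusters that ranked all 8 libraries alike within their groups. Cluster-9253.48841 (466 bases) fell from 377.25, 784.25, 1091.8 and 611 FPKM to 186.55, 192.06, 223.98 and 60.95 FPKM (adjusted p = 0.0442; 0.0677 after scaling). Cluster-9253.54178 (449 bases) fell from 215.38, 486.82, 622.31 and 457.38 FPKM to 125.62, 130.36, 183.13 and 87.17 FPKM (adjusted p = 0.041; 0.061 after scaling). In all 4 of these falls UH replicate 3 was the highest and replicate 4 the lowest UH library. The calls on Cluster-9253.47689, Cluster-9253.48841 and Cluster-9253.54178 were lost after median ratio scaling and quantile normalization, with all 3 still lower in UH. They were also lost without any 1 library other than Ck replicate 1, with adjusted p up to 0.125, 0.104 and 0.107 in this order.

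The longest called clusters fell. Cluster-9253.48459 (20812 bases) stood at 25.09, 50.77, 38.52 and 42.71 FPKM over Ck replicates 1 to 4 and at 4.11, 6.06, 4.39 and 5.48 over UH replicates 1 to 4 (log2 fold change -2.71 ± 0.23 SE, adjusted p = 0.00261). UH held 1555 to 2406 estimated fragments per library on this cluster, and the groups lay far apart: the mean in Ck was 7.84 times that in UH. UL (25.83 to 98.14 FPKM) and UM (22.73 to 39.53 FPKM) overlapped Ck. The call held with any 1 library left out (highest adjusted p 0.016).

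Cluster-9253.47122 (22613 bases) stood at 8.09, 17.76, 7.06 and 10.69 FPKM over Ck replicates 1 to 4 and at 1.01, 4.24, 0.96 and 4.24 over UH replicates 1 to 4 (log2 fold change -1.80 ± 0.43 SE, adjusted p = 0.0499; 0.0662 after scaling). Cluster-9253.51414 (20527 bases) stood at 1.97, 2.86, 2.0 and 2.78 FPKM over Ck replicates 1 to 4 and at 0.94, 1.45, 0.71 and 0.49 over UH replicates 1 to 4 (log2 fold change -0.86 ± 0.185 SE, adjusted p = 0.0408; 0.0598 after scaling). The groups did not overlap in either, but both calls were lost after scaling. As deposited, the call on Cluster-9253.47122 was lost with any 1 library left out (adjusted p 0.054 to 0.124), and that on Cluster-9253.51414 without any 1 library other than Ck replicate 1 (up to 0.105).

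The 3 longest rises were shorter than these. Beside Cluster-9253.48358, they were Cluster-9253.41718 (8376 bases), at 3.5, 2.77, 3.55 and 2.8 FPKM over Ck replicates 1 to 4 and 5.23, 5.07, 4.37 and 6.38 over UH replicates 1 to 4 (log2 fold change 0.59 ± 0.135 SE, adjusted p = 0.046), and Cluster-9253.48596. The latter (7678 bases) stood at 42.47, 16.03, 31.12 and 41.82 FPKM over Ck replicates 1 to 4 and at 126.64, 146.76, 159.5 and 53.99 over UH replicates 1 to 4 (log2 fold change 1.84 ± 0.43 SE, adjusted p = 0.0481; 0.0525 after scaling). It ranked the UH libraries like Cluster-9253.48358, replicate 3 first and replicate 4 last, while Cluster-9253.41718 was highest in replicate 4 and lowest in replicate 3. The call on Cluster-9253.41718 was lost without any 1 library other than Ck replicate 1 (adjusted p up to 0.115). That on Cluster-9253.48596 was lost without any 1 library other than Ck replicate 1 or UH replicate 4 (up to 0.122).

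**Figure D3:**
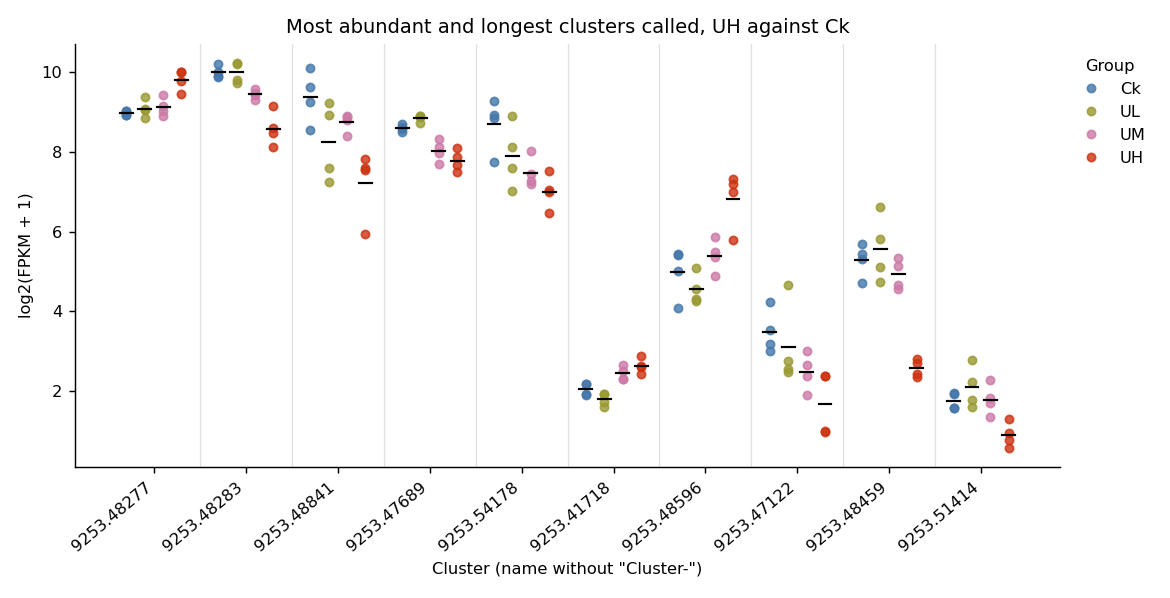
Log2(FPKM + 1) of the most abundant (left 5) and the longest (right 5) clusters called between UH and Ck that are not among the largest changes, with 1 point per library and a bar at the group mean of 4 libraries. The UH points lie above or below all Ck points in each, and Cluster-9253.48459 shows the widest gap, 4.11 to 6.06 FPKM in UH against 25.09 to 50.77 in Ck.

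The 5 most abundant clusters of all were not called. Cluster-9253.47764 (703 bases) ranged from 46862.25 to 57879.21 FPKM in the Ck libraries and from 59574 to 94188.19 FPKM in the UH libraries; the groups did not overlap and the ratio of means was 1.39 (adjusted p = 0.308). Cluster-9253.48231 (750 bases) stood at 7172.96, 14724.32, 9892.92 and 8378.18 FPKM over Ck replicates 1 to 4 and at 6640.63, 5869.88, 9139.52 and 6206.82 over UH replicates 1 to 4 (adjusted p = 0.325). Cluster-9253.47660 (452 bases) ranged from 10918.87 to 17380.27 FPKM in the Ck libraries and from 9009.8 to 16236.02 FPKM in the UH libraries (adjusted p = 0.718). In the last 2 the groups overlapped.

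Single libraries spread widely in the remaining 2. Cluster-9253.45104 (1482 bases) stood at 38.83, 9612.4, 19403.55 and 20485.46 FPKM over Ck replicates 1 to 4 and at 9920.09, 27193.49, 1282.25 and 15.08 over UH replicates 1 to 4, so both groups held libraries with little and with very much of it (adjusted p = 0.812). Cluster-9253.48377 (780 bases) stood at 8802.79, 320.67, 2217.52 and 2080.65 FPKM over Ck replicates 1 to 4 and at 11331.92, 8556.48, 8039.02 and 9963.22 over UH replicates 1 to 4 (log2 fold change 2.30 ± 0.87 SE, adjusted p = 0.14). Only Ck replicate 1 reached the UH range. Without that library its adjusted p was 0.0435.

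Calls by abundance were counted in classes of the mean FPKM over the 8 libraries. Falls were most frequent from 2 to 10 FPKM, with 788 of 13989 clusters (5.63%), against 3.1% under 2 FPKM, 4.49% from 10 to 100 FPKM and 3.1% from 100 to 1000 FPKM. Rises made up 1.03% under 2 FPKM, 1.12, 1.56 and 1.69% in the next 3 classes. Of the 98 clusters at 1000 FPKM and over, 1 rose (Cluster-9253.47406) and 0 fell. On the log2(FPKM + 1) scale, the median size of change was 0.27 under 2 FPKM and 0.64 from 100 to 1000 FPKM. The median standard error of the fit was 0.21 and 0.36 in these classes. With 0.1 instead of 1 added to each value, the sizes were 0.48 and 0.65 and the standard errors 0.37 and 0.37. Between these 2 classes the standard errors were thus alike on that scale, and the sizes differed less. In the other classes the standard error there was 0.24 from 2 to 10 FPKM, 0.23 from 10 to 100 and 0.47 at 1000 and over.

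Direction changed with abundance as well. The median log2 fold change was -0.15 under 2 FPKM, -0.18 from 2 to 10, -0.07 from 10 to 100, 0.16 from 100 to 1000 and 0.17 at 1000 and over. After median ratio scaling the medians were -0.04, -0.02, 0.12, 0.36 and 0.37. With quantile normalization they were -0.03, -0.05, -0.05, -0.02 and -0.09. That setting gives all libraries the same distribution and so largely removes a shift of abundant clusters by construction. It cannot show whether abundant clusters were higher in UH. After median ratio scaling the falls were still most frequent from 2 to 10 FPKM (2.49%), and the rises from 10 to 100 FPKM (2.37%, equal to the falls there).

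Per library, the median log2(FPKM + 1) of the clusters under 2 FPKM was 1.208, 1.345, 1.245 and 1.356 in Ck and 1.144, 1.131, 1.131 and 1.17 in UH. The groups did not overlap (exact permutation p = 0.0286, adjusted 0.0786), and they still did not after scaling, where the difference of means was -0.03 (adjusted 0.143 over 10 class medians). For clusters from 10 to 100 FPKM the medians after scaling were 4.188, 4.005, 4.181 and 4.108 in Ck and 4.241, 4.31, 4.197 and 4.352 in UH, again without overlap but in the other direction (adjusted 0.143). No class median or library measure passed 0.05 after adjustment. The smallest possible p is 0.0286, so passing would have needed many measures at that floor at once. The lack of a pass therefore does not show that the groups were alike.

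Calls by length showed the clearest order. Falls made up 2.44% of the clusters of up to 500 bases, 3.43% over 500 to 1000, 4.46% over 1000 to 2000, 5.32% over 2000 to 4000 and 8.2% over 4000 bases. Rises made up 1.03, 1.36, 1.3, 1.27 and 0.859% in the same classes. Over 4000 bases, 315 clusters fell and 33 rose, so 90.5% of the calls were falls, against 70.3% up to 500 bases. The median length was 2108 bases among the falls, 1374 among the rises and 1457 among all compared clusters.

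After scaling, the percentages that fell were 1.45, 1.45, 1.94, 2.41 and 4.19, and those that rose 1.15, 1.82, 2.03, 1.68 and 1.35. The share of falls among calls over 4000 bases was then 75.6%, and 82.7% with quantile normalization. The longest class thus held the highest percentage of falls under all 3 scalings. The median standard error of the fit fell with length, from 0.37 up to 500 bases to 0.16 over 4000 bases, so a change of a given size was called more readily in long clusters. The part of this precision in the order of the classes was not tested.

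Up to 4000 bases, neither the direction nor the size of change followed the order of the falls, but the longest class had the lowest median. The median log2 fold change was -0.17 up to 500 bases, -0.15, -0.11 and -0.14 in the next 3 classes, and -0.21 over 4000 bases. In that longest class 2894 of 3842 clusters lay below 0. After median ratio scaling the medians were -0.03, -0.003, 0.04, 0.02 and -0.06, again lowest over 4000 bases. In size, regardless of direction, the medians were 0.41, 0.32, 0.29, 0.27 and 0.29 from the shortest to the longest class, highest in the shortest class, which also had the widest standard error. Within 2 to 10 FPKM, where clusters are most numerous, falls made up 2.0% up to 500 bases and 10.1% over 4000 bases (218 of 2153). From 10 to 100 FPKM they made up 2.91 and 6.82%, and under 2 FPKM 2.69 and 4.82%. The excess over 4000 bases therefore stood in each of these 3 abundance classes; from 100 to 1000 FPKM, with 54 such clusters, 0 fell and 3 rose.

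Per library, the median log2(FPKM + 1) of clusters over 4000 bases was 2.453, 2.617, 2.511 and 2.672 in Ck and 2.257, 2.316, 2.282 and 2.43 in UH. No UH library reached a Ck library (exact permutation p = 0.0286, adjusted 0.0786). After scaling the medians were 2.44, 2.419, 2.454 and 2.492 in Ck and 2.311, 2.384, 2.364 and 2.441 in UH, where UH replicate 4 overlapped Ck (p = 0.0857, exact permutation). Estimated mean fragment length, which enters FPKM most on short clusters, was 255 to 273 bases in Ck and 267 to 293 bases in UH, and its part was not tested.

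**Figure D4:**
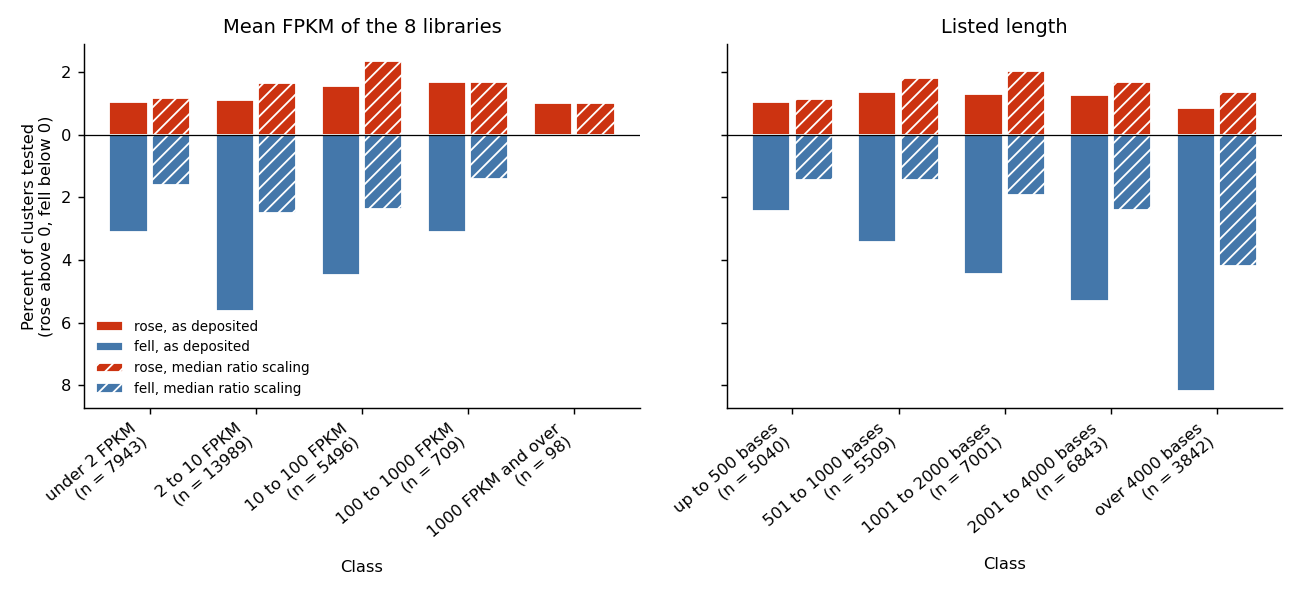
Percent of compared clusters that rose (red, upward) or fell (blue, downward) between UH and Ck at an adjusted p under 0.05, by class of mean FPKM (left) and of listed length (right), as deposited (plain) and after median ratio scaling (hatched). The number of clusters in each class stands under the bars; falls grow with length from 2.44 to 8.2% as deposited and from 1.45 to 4.19% after scaling.

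By size, most compared clusters moved little: 20018 had a log2 fold change under 0.5 in either direction, of which 2 were called as rises and 76 as falls. From 0.5 to 1 the calls were 72 rises and 677 falls (1.36 and 12.8% of 5307 clusters). From 1 to 2 they were 159 and 391 (7.26 and 17.9% of 2189). From 2 to 4 they were 93 and 121 (15.2 and 19.8% of 610), and at 4 and over 12 and 38 (10.8 and 34.2% of 111). The share of falls among calls was highest among small changes, 97.4% under 0.5 and 90.4% from 0.5 to 1. Most clusters of these sizes lay below 0, called or not: 13492 of 20018 and 3522 of 5307. At 4 and over, 81 of 111 did. From 1 to 2 in size, more clusters lay above 0 (1209) than below (980), and yet more of those below 0 were called. Median ratio scaling gave 138 rises and 238 falls from 0.5 to 1 (3.04 and 5.24% of 4541 clusters). From 2 to 4 it gave 118 rises and 85 falls (18.3 and 13.2% of 644).

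Single libraries stood out among the called clusters. Ck replicate 1 was the highest Ck library in 40.9% of the rises, against 22.7% of all compared clusters, and Ck replicate 2 was the lowest in 49.8% of them, against 27.0%. Among the falls, Ck replicate 2 was the highest Ck library in 41.2% (33.8% of all) and UH replicate 1 the lowest UH library in 38.0% (24.2% of all). Rises therefore tended to be nearest to UH in Ck replicate 1, and falls to start highest in Ck replicate 2. Among the rises, UH replicate 4 was the highest UH library in 39.1% (41.1% of all) and the lowest in 34.7% (21.4% of all), while replicate 3 was the lowest in 42.8% (32.9% of all).

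The UL and UM libraries were used neither to choose nor to test these clusters, so the difference between them is a separate measurement. Of the 338 rises, 313 (92.6%) had a higher mean log2 value in UM than in UL, against 41.2% of all compared clusters. Of the 1303 falls, 1114 (85.5%) were lower in UM than in UL, against 58.7% of all. The clusters that separated UH from Ck thus separated UM from UL in the same direction in most cases. The median difference of UM minus UL was 0.70 among the rises, -0.31 among the falls and -0.07 among all.

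The same holds library by library. The median log2(FPKM + 1) of the 338 rises was 2.367, 1.96, 2.123 and 2.167 in UM and 1.472, 1.356, 1.179 and 0.9745 in UL, without overlap. It was 1.195, 1.198, 1.029 and 1.345 in Ck and 2.975, 3.125, 2.663 and 3.159 in UH, which is how they were chosen. For the 1303 falls it was 2.422, 2.526, 2.578 and 2.501 in UM and 2.832, 2.595, 2.718 and 3.151 in UL, again without overlap. Over all compared clusters UM (2.254 to 2.328) lay inside the range of UL (2.064 to 2.401). Clusters move together, so their number is not a number of independent observations, and no test was made of these medians.

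**Figure D5:**
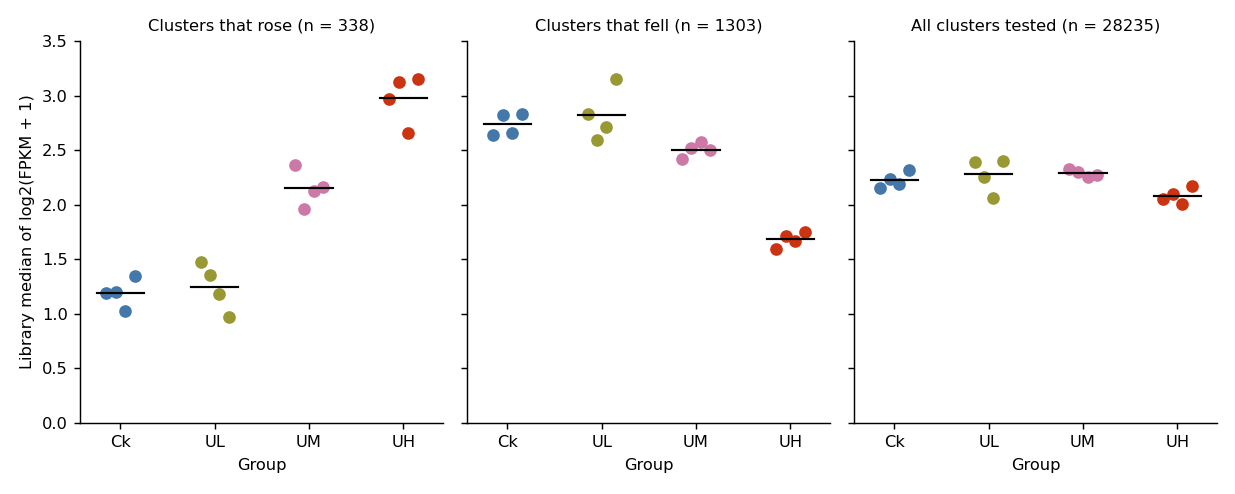
Library medians of log2(FPKM + 1) over the clusters that rose (left), fell (middle) or were compared (right) between UH and Ck, with 1 point per library and a bar at the mean of 4 libraries; the order of the groups on the horizontal axis is not an order of concentration. Ck and UH chose the clusters in the left and middle panels, while UM and UL did not: all 4 UM points lie above all 4 UL points in the rises (1.96 to 2.367 against 0.9745 to 1.472) and below them in the falls.

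As deposited, UH was the outermost of the 4 groups more often among the falls than among the rises. All 4 UH libraries lay below all 12 other libraries in 868 of the falls (66.6%) and above them in 120 of the rises (35.5%). Over all compared clusters these shares were 7.25 and 0.864%. UH also had the lowest median of group mean log2 values over all compared clusters, 2.051 against 2.206 in Ck, 2.257 in UL and 2.265 in UM. The shares were not counted after scaling. Among all clusters with UH entirely below Ck, called or not, the share below all 12 was 48.8%, and among those entirely above Ck the share above all 12 was 20.9%. No test was made of the difference between these shares.

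The filter set which clusters were compared. The fourth highest of the 8 values lay from 1 to 1.1 FPKM for 1294 compared clusters and from 0.9 to 1 FPKM for 1493 clusters left out. Just inside, Cluster-9253.78694 (5232 bases) stood at 0.64, 0.64, 0.56 and 0.73 FPKM over Ck replicates 1 to 4 and at 1.23, 1.07, 1.0 and 1.28 over UH replicates 1 to 4. Just outside, Cluster-9253.39778 (11204 bases) stood at 2.15, 2.61, 1.25 and 0.95 FPKM over Ck replicates 1 to 4 and at 0.95, 0.74, 0.99 and 0.93 over UH replicates 1 to 4. The first passed through the UH libraries alone.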

How the data were processed

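Per the labels' protocols, poly-A RNA was selected from whole spiders and random hexamers primed the cDNA for Illumina sequencing. The authors deposited FPKM rounded to 2 decimals for 136360 clusters, with a length for each, per the file headers and the values. The sources used here do not name the assembler, aligner or counter, and the build in the submitters' processing notes is that of a mouse and was not used.

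Groups and replicate numbers came from the sample titles. A cluster entered if 4 or more of the 8 UH and Ck libraries had 1 FPKM or more, as log2(FPKM + 1), a scale that understates the change of low clusters. These 8 libraries were fitted by limma-trend (limma 3.58.1, R 4.3.3), which takes the spread from UH and Ck alone; tests are two-sided with Benjamini-Hochberg adjustment over 28235 clusters. All adjusted p-values of clusters are from limma. For measures with a single value per library, the test was an exact permutation test, two-sided.

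Depth was found by searching for the depth and mean fragment length that make low FPKM values whole multiples of 1 fragment. On clusters no longer than 900 bases, 98.44 to 98.76% of values worth 1 to 10 fragments were whole to within 0.1 fragment. The largest error on 2 simulated libraries was 1.1%. Fragments are estimates and served only a limma voom alternative and the depth statements; their counting error alone does not cover the spread between libraries. On simulated data for UH against Ck with 200 of 28235 clusters changed, limma recovered 31% of changes of log2 size 1, with 10.1% of the calls false, and 68.5% of log2 size 2, with 4.2% false. The simulated noise was normal and independent between clusters, with no shift of whole libraries. Only clusters with a mean log2 value above 1 were changed. Real clusters move together, so these false shares cannot be carried over to the calls made here.

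Named clusters were, among calls without overlap, the 6 largest rises and falls, the 4 most abundant and 3 longest in each direction, and the 5 most abundant clusters of all. The comparison, classes and rules were chosen with earlier results of these data known. Alternatives were other scalings, pseudocounts and filters, all 16 libraries, array weights, a replicate block, each library left out, and, added after the data were seen, voom and the block or left-out libraries after median ratio scaling. No list of genes by function could be matched to clusters.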

Additional observations from a re-analysis of the deposited data

Results flagged for a closer look

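In 10 of 98 groups of 4 libraries examined, 1 library lay far from the other 3, with a gap to its neighbour above Dixon's 95% critical share of the group's range; chance alone gives about 1 such group in 20. The clusters were examined as log2(FPKM + 1). In Cluster-9253.48350 both groups were concerned, with Ck replicate 4 low at 8.63 FPKM (gap 0.866 of the range) and UH replicate 3 high at 1.4 FPKM (0.891). UH replicate 4 was low in Cluster-9253.48358 (0.889) and Cluster-9253.48841 (0.859). Ck replicate 1 was low in Cluster-9253.45104 (0.879), and Ck replicate 4 high in Cluster-9253.84883 at 0.26 FPKM (0.83), a value of few fragments.

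Among library measures, the FPKM sum of UH replicate 3 was low at 719263 against 796068 to 809367 in the other UH libraries (0.852). The most abundant cluster took 11.83% of the sum in UH replicate 1 against 8.283 to 8.797% in the other 3 (0.855). Clusters over 500 to 1000 bases took 34.62% of the sum in Ck replicate 1 against 31.76 to 32.21% in the others (0.846). The median log2(FPKM + 1) of clusters over 2000 to 4000 bases was high in Ck replicate 4, at 2.516 against 2.37 to 2.381 (0.924).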

How the results depend on the processing

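As deposited, 1641 clusters were called, 338 up and 1303 down. Counts by setting (all, up, down) were 1082, 467 and 615 with median ratio scaling, 1102, 432 and 670 with quantile normalization, 301, 61 and 240 with no filter, 874, 180 and 694 with at least 5 FPKM in 4 libraries, 3741, 1158 and 2583 with all 16 libraries fitted, 4020, 1071 and 2949 with array weights, 1471, 254 and 1217 with a pseudocount of 0.1, and 1888, 307 and 1581 with limma voom. With single libraries left out they ran from 341 to 2534, from 47 to 678 and from 284 to 1856. After median ratio scaling they were 1621, 938 and 683 without Ck replicate 1, 908, 446 and 462 without Ck replicate 2, 337, 83 and 254 without Ck replicate 3, 326, 71 and 255 without Ck replicate 4, 212, 48 and 164 without UH replicate 1, 267, 58 and 209 without UH replicate 2, 823, 440 and 383 without UH replicate 3, and 520, 188 and 332 without UH replicate 4; rises then outnumbered falls without Ck replicate 1 and without UH replicate 3. The median change of all compared clusters was -0.15 as deposited, -0.000437 with median ratio scaling and -0.041 with quantile normalization, and -0.19 to -0.12 with a library left out. Falls over 4000 bases were 8.2% as deposited, 4.19% with median ratio scaling, 4.74% with quantile normalization, 8.33% with a pseudocount of 0.1 and 12.3% with at least 5 FPKM. The cause of these movements was not tested, apart from the change in the clusters or libraries tested that some settings make.

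A replicate block gave 371 calls (96 up, 275 down), and 489 (243 up, 246 down) after median ratio scaling. Deviations of same-numbered Ck and UH libraries correlated at -0.053, 0.179, 0.034 and -0.297 for replicates 1 to 4, so the numbers were not taken to pair the libraries; not every library correlated best with its own number.

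Of the 22 named calls, 9 held as deposited with any 1 library left out. Among these 9, the call on Cluster-9253.36950 was lost without UH replicate 1 after median ratio scaling. Under every other setting run, 5 of the 9 also held: Cluster-9253.84883, Cluster-9253.46820, Cluster-9253.48286, Cluster-9253.50050 and Cluster-9253.48459. Of these 5, Cluster-9253.84883 and Cluster-9253.46820 passed the filter only through the group where they are high. So did Cluster-9253.14435, Cluster-9253.52189 and Cluster-9253.69669 among the 9. All named calls were also chosen for having no overlap, so their stability is not separate support. None of the 22 changed sign. Among uncalled clusters, Cluster-9253.47660 turned from -0.18 to 0.021 (log2 fold change) with median ratio scaling, with or without the block, and to 0.016 to 0.167 there with a library left out (0.114 and 0.070 without Ck replicates 2 and 3, 0.016, 0.047 and 0.167 without UH replicates 1, 2 and 4). Cluster-9253.45104 turned from -1.19 to 1.00 without UH replicate 4, and to 1.22 after scaling; with a library left out it ran from -3.35 to 1.22. Among clusters called as deposited, the share of rises higher in UM than in UL was 90.5 to 94.4% over the settings run. The share of falls lower in UM was 77.5 to 86.6%. Among clusters called after median ratio scaling these shares were 85.9 to 93.1% and 75.4 to 85.7%. The difference of UH minus Ck in clusters listed above 0, -9530, was -12120 to -6386 with a library left out.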
